A study of Mus musculus with 12 samples.

Results

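The genes described here are 10 small leucine-rich proteoglycans: Dcn, Bgn, Aspn, Lum, Fmod, Prelp, Omd, Kera, Ogn and Podn. They were taken by symbol from a table of 36512 genes, and all 10 were among the 21285 genes with enough counts to be tested. Cells were sorted by flow cytometry from the aorta, with its perivascular fat, of wild-type CD-1 pups aged 3 days (P3), males and females mixed. The 4 sorted populations were smooth muscle cells, preadipocytes, intermediate cells and progenitor cells, with 3 libraries each. The pups carried no allele and received no treatment that the labels name, and the labels give neither the sorting gates nor the number of pups behind a library. Whether replicates are separate litters or separate sorts is likewise not in the labels, and the spread behind each p-value may therefore be technical. These are bulk libraries, so fewer cells of a type and less RNA per cell cannot be told apart.

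Small leucine-rich proteoglycans are secreted proteins whose core folds into a curved row of leucine-rich repeats. The cores bind collagen fibrils and set their width and spacing, and several also bind growth factors of the TGF-β family. Class I (Dcn, Bgn, Aspn) and class II (Lum, Fmod, Prelp, Omd, Kera) are the classical families, whose members may carry chondroitin or dermatan sulfate chains in class I and keratan sulfate chains in class II. Ogn belongs to class III and Podn to class V. In the vessel wall, decorin and biglycan are known as matrix components of the adventitia and the media.

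Libraries held 11701825 to 13256506 counts in smooth muscle cells, 15148249 to 15739798 in preadipocytes, 12862486 to 15550623 in intermediate cells and 14778738 to 17123109 in progenitor cells. Levels are CPM (counts divided by library size) scaled by the trimmed mean of M values (TMM), and are set side by side between genes only per kilobase of exon. Summed over 8 contractile markers, levels were 7304 to 7932 CPM in smooth muscle libraries, 121 to 215 in preadipocyte, 937 to 1276 in intermediate and 148 to 160 in progenitor libraries, although Tagln, a classical marker of that list, reached only 9.23 ± 1.85 CPM in smooth muscle cells (SD, n = 3). Summed over 8 adipocyte markers, levels were 55.5 to 66.4, 3208 to 5230, 83.0 to 94.4 and 308 to 400 CPM in smooth muscle, preadipocyte, intermediate and progenitor libraries. Summed over 8 fibroblast and adventitial progenitor markers, levels were 347 to 411, 304 to 492, 1477 to 1582 and 4179 to 4712 CPM in the same order. These sums were thus highest in smooth muscle, preadipocyte and progenitor libraries, in that order of lists. No list stands for the intermediate label, and markers of other cell types were read as well. Smooth muscle libraries held 984 to 1353 CPM of 5 mesothelial markers and 529 to 708 CPM of 7 Schwann and neuronal markers. They also held 700 to 1015 CPM, here without TMM scaling, of 1047 olfactory and vomeronasal receptor genes. Those receptor genes summed to at most 311 CPM, also without TMM scaling, in each of the other libraries. Haemoglobin genes took 1.83% of the counts of preadipocyte replicate 3 (95% Wilson interval 1.828% to 1.842%), against 0.114% and 0.129% in replicates 1 and 2. The part of these other transcripts in the results below was not tested, except for an even background taken from the receptor genes.

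Of the 10 genes, 8 lie in 3 clusters of the mouse genome (mm10, GENCODE M21). On chromosome 10, Dcn (97479609 to 97518143), Lum (97565128 to 97572703) and Kera (97606879 to 97613692) run in that order on the plus strand, 46984 and 34175 bp apart, and are followed 30375 bp on by Epyc (epiphycan), a class III relative. On chromosome 13, Aspn (49544443 to 49567565), Omd (49582462 to 49592822) and Ogn (49608046 to 49624501) lie 14896 and 15223 bp apart on the plus strand, with Ecm2 before them, inside the span of Cenpp on the other strand. On chromosome 1, Prelp (133910304 to 133921414, minus strand) lies 115839 bp from Fmod (134037254 to 134048277, plus strand), with Optc, another class III relative, on its other side. Podn lies on chromosome 4 (108014791 to 108096445, minus strand) and Bgn on the X chromosome (73483602 to 73495933, plus strand). An exon of Aspn overlaps one of Cenpp, and an exon of Prelp one of Gm15851, both on the opposite strand. Strand use in the counting is not given in the sources used here, so reads of these partners cannot be told apart. As counted, Cenpp held 4.35 to 22.1 CPM and Aspn 122 to 1194 CPM. The part of such shared reads was not tested.

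Upstream sequences are shown for 5 genes. The cluster genes Aspn, Omd and Ogn had nearly the same profile over the populations, while Bgn and Fmod differed from it and from each other. Each is the 250 bases before the RefSeq start site (GRCm38.p6), on the gene's strand, in which capitals mark a match of a searched motif on either strand. The windows are chr13:49544193-49544442 for Aspn, chr13:49582212-49582461 for Omd, chr13:49607765-49608014 for Ogn, chr1:134037004-134037253 for Fmod and chrX:73483351-73483600 for Bgn, each on the plus strand.
Aspn: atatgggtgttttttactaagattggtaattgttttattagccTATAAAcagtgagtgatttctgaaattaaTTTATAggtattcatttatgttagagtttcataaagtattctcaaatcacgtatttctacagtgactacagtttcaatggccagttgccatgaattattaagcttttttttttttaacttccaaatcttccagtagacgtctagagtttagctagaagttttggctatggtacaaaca
Omd: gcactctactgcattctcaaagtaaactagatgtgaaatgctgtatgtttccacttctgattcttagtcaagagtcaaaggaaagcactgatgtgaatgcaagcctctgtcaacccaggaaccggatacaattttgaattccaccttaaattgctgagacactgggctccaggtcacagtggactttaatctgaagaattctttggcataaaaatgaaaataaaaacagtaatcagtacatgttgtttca
Ogn: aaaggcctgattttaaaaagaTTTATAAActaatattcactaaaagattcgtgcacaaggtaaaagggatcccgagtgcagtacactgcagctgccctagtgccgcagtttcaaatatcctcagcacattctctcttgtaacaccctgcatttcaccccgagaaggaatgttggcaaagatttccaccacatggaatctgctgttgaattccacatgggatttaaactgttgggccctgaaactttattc
Fmod: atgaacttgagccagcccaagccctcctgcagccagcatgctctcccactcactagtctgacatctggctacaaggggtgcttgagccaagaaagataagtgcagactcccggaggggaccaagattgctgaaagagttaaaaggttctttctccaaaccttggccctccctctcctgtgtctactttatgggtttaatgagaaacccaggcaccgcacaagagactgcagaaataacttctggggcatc
Bgn: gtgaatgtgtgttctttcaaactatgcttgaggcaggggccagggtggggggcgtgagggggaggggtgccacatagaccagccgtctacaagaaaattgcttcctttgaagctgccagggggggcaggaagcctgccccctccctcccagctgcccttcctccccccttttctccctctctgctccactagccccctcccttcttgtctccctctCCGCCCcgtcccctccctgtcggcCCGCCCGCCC

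The motifs searched were the TATA box TATAAA, the GC box GGGCGG, the AP-1 site TGANTCA and the CArG box bound by serum response factor. RefSeq windows were matched for 8 of the 10 genes. TATAAA matched in Aspn, with first bases at −207 and −178 from the start site, and in Ogn at −229 and −227, where both strands of 1 palindromic stretch overlap. It was present in 12.4% of the 32851 mouse windows of this length. GGGCGG matched in Bgn on the opposite strand at −34, −10 and −6, the last pair overlapping, and was present in 32.7% of windows. It also matched in a window of Podn, which is not shown, at −202 and −70. TGANTCA (6.75% of windows) and the CArG box (1.47%) matched in none of the 5 sequences. The G+C content was 30% in Aspn, 38.4% in Omd, 42% in Ogn, 51.2% in Fmod and 64.4% in Bgn, where the median over all windows was 52.4%. In windows not shown it was 42.4% in Kera, 55.6% in Prelp, and 78% and 64% in Podn. These matches describe letters in a window and no binding was measured.

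Summed over the 10 genes, the proteoglycan transcripts were most abundant in progenitor cells, where Dcn alone made up 46.7 ± 4.13% of the sum per kilobase. Their summed level per kilobase of exon was 770 ± 69.5 CPM per kb in smooth muscle cells, 773 ± 75.7 in preadipocytes, 2848 ± 141 in intermediate cells and 4844 ± 79.1 in progenitor cells (SD, n = 3 each). They took 0.409 ± 0.0384%, 0.371 ± 0.0376%, 1.03 ± 0.0280% and 1.81 ± 0.0490% of all counts in the same populations. The ranges of smooth muscle and preadipocyte libraries overlapped, and intermediate and progenitor libraries stood apart from them and from each other. Taken singly, Bgn, Fmod and Podn were highest in intermediate cells and Kera in preadipocytes. Each of the 10 genes differed among the 4 populations (edgeR's quasi-likelihood F test with Benjamini-Hochberg adjustment over all genes tested), as did 79.8% of all genes.

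**Figure D1:**
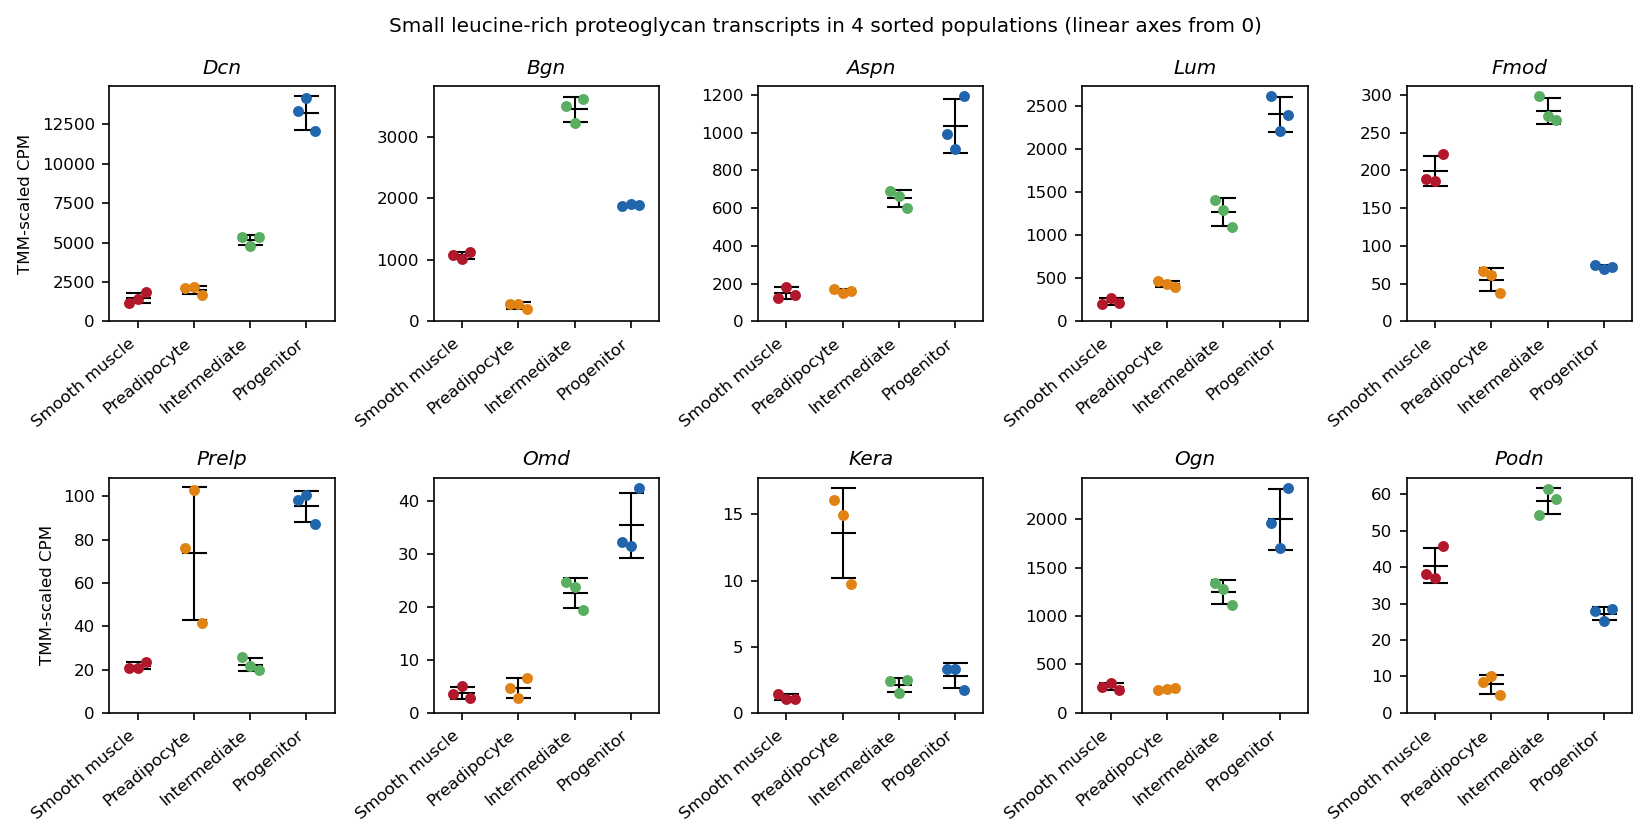
Level of each gene (TMM-scaled CPM, linear axis from 0) in the 12 libraries, by population; points are libraries, the middle line is the mean and the whiskers are the SD (n = 3). Dcn, Lum, Aspn, Ogn and Omd are highest in progenitor libraries, Bgn, Fmod and Podn in intermediate libraries, and Kera in preadipocyte libraries.

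Decorin binds collagen fibrils and TGF-β and carries a single glycosaminoglycan chain. Dcn measured 1196, 1404 and 1841 CPM in smooth muscle libraries, 2149, 2169 and 1696 in preadipocyte, 5367, 4793 and 5367 in intermediate and 13369, 14184 and 12069 in progenitor libraries. The progenitor libraries were the highest, followed by the intermediate ones, and smooth muscle and preadipocyte libraries overlapped. Dcn was lower in smooth muscle cells than in progenitor cells by a log2 fold change of −3.16 ± 0.18 (SE; adjusted p = 1.41e-09), and lower in intermediate than in progenitor cells by −1.35 ± 0.16 (adjusted p = 2.51e-05). Between smooth muscle cells and preadipocytes the fold change was −0.44 ± 0.16 (adjusted p = 0.0265), and this call was lost without smooth muscle replicate 1 or 2, without preadipocyte replicate 1 or 2 (−0.31 to −0.40, adjusted p = 0.0634 to 0.126) and with the even background subtracted (−0.30, adjusted p = 0.0853).

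Lumican, a keratan sulfate proteoglycan that regulates fibril assembly in the cornea and skin, had the same order. Lum measured 197, 271 and 218 CPM in smooth muscle libraries, 463, 438 and 397 in preadipocyte, 1412, 1295 and 1099 in intermediate and 2610, 2210 and 2389 in progenitor libraries. No 2 populations overlapped, and all 6 comparisons of Lum passed the test. It was lower in smooth muscle cells than in preadipocytes by −0.92 ± 0.15 (adjusted p = 5.23e-05) and lower than in progenitor cells by −3.39 ± 0.16 (adjusted p = 2.43e-10), while intermediate cells were below progenitor cells by −0.92 ± 0.14 (adjusted p = 0.000289).

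The 3 neighbours on chromosome 13 shared 1 profile. Asporin (Aspn) binds collagen and TGF-β without a glycosaminoglycan chain, osteoglycin or mimecan (Ogn) is a small class III protein of bone and vessel matrix, and osteomodulin (Omd) is a keratan sulfate protein of mineralised matrix. Ogn measured 266, 306 and 235 CPM in smooth muscle libraries, 232, 246 and 260 in preadipocyte, 1346, 1284 and 1113 in intermediate and 1966, 1704 and 2327 in progenitor libraries. Aspn measured 122, 184 and 142 CPM in smooth muscle libraries, 170, 150 and 160 in preadipocyte, 690, 664 and 601 in intermediate and 993, 916 and 1194 in progenitor libraries. Omd was far lower, with 3.51, 5.03 and 2.83 CPM in smooth muscle libraries, 4.64, 2.90 and 6.57 in preadipocyte, 24.8, 23.8 and 19.4 in intermediate and 32.2, 31.5 and 42.4 in progenitor libraries. In each of these 3 genes the smooth muscle and preadipocyte libraries overlapped and lay below all intermediate libraries, and these lay below all progenitor libraries.

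The fold changes of the 3 genes lay close together. Smooth muscle against intermediate cells gave −2.21 ± 0.15 for Ogn, −2.12 ± 0.16 for Aspn and −2.57 ± 0.27 for Omd, and preadipocytes against progenitor cells gave −3.02 ± 0.15, −2.69 ± 0.16 and −2.90 ± 0.27, with adjusted p at most 2.55e-06. Intermediate cells were below progenitor cells by −0.68 ± 0.14 for Ogn (adjusted p = 0.00302) and −0.67 ± 0.15 for Aspn (adjusted p = 0.00516), whereas Omd, at −0.64 ± 0.24, missed the threshold (adjusted p = 0.0619). DESeq2 and limma-voom called Omd there (adjusted p = 0.0458 and 0.0299). Between smooth muscle cells and preadipocytes none of the 3 passed in edgeR: the fold changes were 0.13 ± 0.14 for Ogn (adjusted p = 0.439), −0.10 ± 0.15 for Aspn (adjusted p = 0.591) and −0.31 ± 0.28 for Omd (adjusted p = 0.335), and the count was 0 as well at an unadjusted p under 0.05 and in DESeq2 and limma-voom. Without the filter on low counts, which also changed the common library of the scaling, Aspn and Omd were called lower in smooth muscle cells (−0.54, adjusted p = 0.0154, and −0.76, adjusted p = 0.0204). The even background amounted to 6.98% to 12.6% of the Omd counts of smooth muscle libraries.

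Biglycan, the class I relative of decorin that carries a pair of chains and whose soluble form is a ligand of Toll-like receptors, did not follow decorin. Bgn measured 1085, 1015 and 1129 CPM in smooth muscle libraries, 285, 288 and 198 in preadipocyte, 3504, 3219 and 3620 in intermediate and 1883, 1902 and 1888 in progenitor libraries. The intermediate libraries were the highest and the preadipocyte ones the lowest, with no overlap between any 2 populations. All 6 comparisons of Bgn passed the test. Bgn was higher in smooth muscle cells than in preadipocytes by 2.07 ± 0.15 (adjusted p = 1.11e-08) and higher in intermediate than in progenitor cells by 0.87 ± 0.14 (adjusted p = 0.000419), and it was lower in preadipocytes than in intermediate cells by −3.74 ± 0.16, a 13.4-fold difference (adjusted p = 6.96e-11).

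Fibromodulin (Fmod) binds collagen I and is abundant in tendon, and podocan (Podn) is known to restrain growth of arterial smooth muscle cells in mice. Fmod measured 189, 186 and 222 CPM in smooth muscle libraries, 67.0, 61.9 and 37.4 in preadipocyte, 299, 272 and 266 in intermediate and 75.3, 68.7 and 72.1 in progenitor libraries. Podn measured 38.2, 37.1 and 45.9 CPM in smooth muscle libraries, 8.42, 10.2 and 5.01 in preadipocyte, 54.3, 61.4 and 58.9 in intermediate and 28.1, 25.4 and 28.4 in progenitor libraries. Both were highest in intermediate libraries and lowest in preadipocyte libraries, with no overlap between any 2 populations.

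Both genes were higher in smooth muscle cells than in preadipocytes, Fmod by 1.84 ± 0.18 (adjusted p = 2.68e-07) and Podn by 2.36 ± 0.20 (adjusted p = 7.65e-08). Both were also higher in intermediate than in progenitor cells, by 1.95 ± 0.18 (adjusted p = 1.19e-06) and 1.09 ± 0.19 (adjusted p = 0.000681). Fmod was higher in smooth muscle than in progenitor cells by 1.47 ± 0.18 (adjusted p = 5.81e-06). For Podn that difference was 0.57 ± 0.19 (adjusted p = 0.0196), a call lost without smooth muscle replicate 3 (0.46, adjusted p = 0.0805), without progenitor replicate 2 (0.52, adjusted p = 0.0696), with preadipocyte replicate 3 as the common library of the TMM scaling (0.28, adjusted p = 0.191), and without the filter on low counts (0.08, adjusted p = 0.741), which also made that library the common one in place of progenitor replicate 2. Against intermediate cells, the smooth muscle values of −0.49 ± 0.17 for Fmod (adjusted p = 0.0431) and −0.53 ± 0.19 for Podn (adjusted p = 0.0461) passed narrowly. They were −0.0016 and −0.04 when libraries were scaled by their size alone (adjusted p = 0.994 and 0.847), and both calls were also lost with the background subtracted and without smooth muscle replicate 1 or 2, or any intermediate or progenitor replicate (adjusted p = 0.0545 to 0.145). The background amounted to at most 0.344% of the Fmod and 2.20% of the Podn counts of smooth muscle libraries. TMM scaling was computed anew after its subtraction. Between preadipocytes and progenitor cells Fmod differed by −0.38 ± 0.17, which did not pass (adjusted p = 0.0815) but did without preadipocyte replicate 1 (−0.54, adjusted p = 0.0207).

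Prelp (prolargin), which binds collagen and the basement membrane proteoglycan perlecan, and Kera (keratocan), best known from the corneal stroma, had 2 further profiles. Prelp measured 20.7, 20.9 and 23.7 CPM in smooth muscle libraries, 76.3, 103 and 41.7 in preadipocyte, 25.8, 21.4 and 19.6 in intermediate and 98.3, 101 and 87.4 in progenitor libraries. Preadipocyte and progenitor libraries overlapped at the upper level and smooth muscle and intermediate libraries at the lower level. Prelp was higher in preadipocytes than in intermediate cells by 1.73 ± 0.24 (adjusted p = 1.45e-05) and lower in smooth muscle than in progenitor cells by −2.13 ± 0.24 (adjusted p = 3.15e-06). The difference was −0.37 ± 0.23 for preadipocytes against progenitor cells (adjusted p = 0.189) and −0.03 ± 0.24 for smooth muscle against intermediate cells (adjusted p = 0.933). The lowest preadipocyte library was replicate 3, and without preadipocyte replicate 2 Prelp was called lower in preadipocytes than in progenitor cells (−0.69, adjusted p = 0.0120).

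Kera was the least abundant member per kilobase in each population except preadipocytes. It measured 1.43, 1.08 and 1.06 CPM in smooth muscle libraries, 16.1, 15 and 9.75 in preadipocyte, 2.41, 1.5 and 2.45 in intermediate and 3.34, 3.35 and 1.74 in progenitor libraries. Each preadipocyte library lay above every other library. Kera was higher in preadipocytes than in intermediate cells by 2.69 ± 0.30 (adjusted p = 1.63e-06) and than in progenitor cells by 2.28 ± 0.29 (adjusted p = 7.50e-06), and lower in smooth muscle cells than in preadipocytes by −3.51 ± 0.32 (adjusted p = 1.42e-07). The sum of tendon and cartilage markers also varied: the 8 of them summed to 91.0 to 113 CPM in smooth muscle, 103 to 311 in preadipocyte, 99.0 to 106 in intermediate and 59.9 to 72.3 CPM in progenitor libraries. Not every marker of the list differed among the populations. None of them was at 0 in a whole population, but several averaged below 1 CPM in progenitor and in intermediate cells. The highest preadipocyte library, replicate 1, held 156 CPM of Col2a1 against 5.32 and 2.51 CPM in replicates 2 and 3. Replicate 1 was also the highest library for Kera, and without it the Kera differences were 2.55 against intermediate cells (adjusted p = 7.71e-06) and 2.14 against progenitor cells (adjusted p = 3.71e-05). The part of tendon and cartilage cells in the Kera level was not tested.

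The level of Kera in smooth muscle cells rested on few reads. The even background amounted to 29.9% to 32.9% of its counts in smooth muscle libraries and at most 10.6% elsewhere. These shares assume that the background is even, which was not tested. Smooth muscle cells were below progenitor cells by −1.23 ± 0.33 (adjusted p = 0.00547), a call lost when libraries were scaled by size alone (−0.79, adjusted p = 0.0518). Against intermediate cells the difference was −0.82 ± 0.34 (adjusted p = 0.0863), and it passed with the background subtracted (−1.14, adjusted p = 0.0297).

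Counted over the 6 comparisons, the lower value was mostly in smooth muscle cells and preadipocytes. In smooth muscle cells against progenitor cells, 2 members were higher and 8 lower, where 54.1% of all genes were called, 30.5% higher and 23.6% lower. In smooth muscle against intermediate cells, 8 members were lower, against 28.8% of all genes called in either direction and 13.1% lower, and edgeR, DESeq2 and limma-voom called 0 higher, against 15.7% of all genes in edgeR (0 also at an unadjusted p under 0.05, since all 10 fold changes were below 0). In preadipocytes against intermediate cells, 2 members (Prelp and Kera) were higher and 8 lower, beside 57.1% of all genes called, 26% higher and 31.1% lower. In each of these 3 comparisons 8 of 10 members were lower, where 13.1% to 31.1% of all genes were. For smooth muscle against intermediate cells this count was 6 with library size alone and 6 to 8 when each library was left out.

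In preadipocytes against progenitor cells, 1 member (Kera) was higher and 7 lower, beside 50.9% of all genes called, 25.1% higher and 25.9% lower. In intermediate against progenitor cells, 3 members (Bgn, Fmod and Podn) were higher and 5 lower, beside 27.6% of all genes called, 14.1% higher and 13.4% lower. In smooth muscle cells against preadipocytes, 3 members (the same Bgn, Fmod and Podn) were higher and 4 lower, and 66.6% of all genes were called in either direction (40.7% higher, 25.9% lower). That share of 7 in 10 is close to the background. These comparisons share libraries and are not independent.

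**Figure D2:**
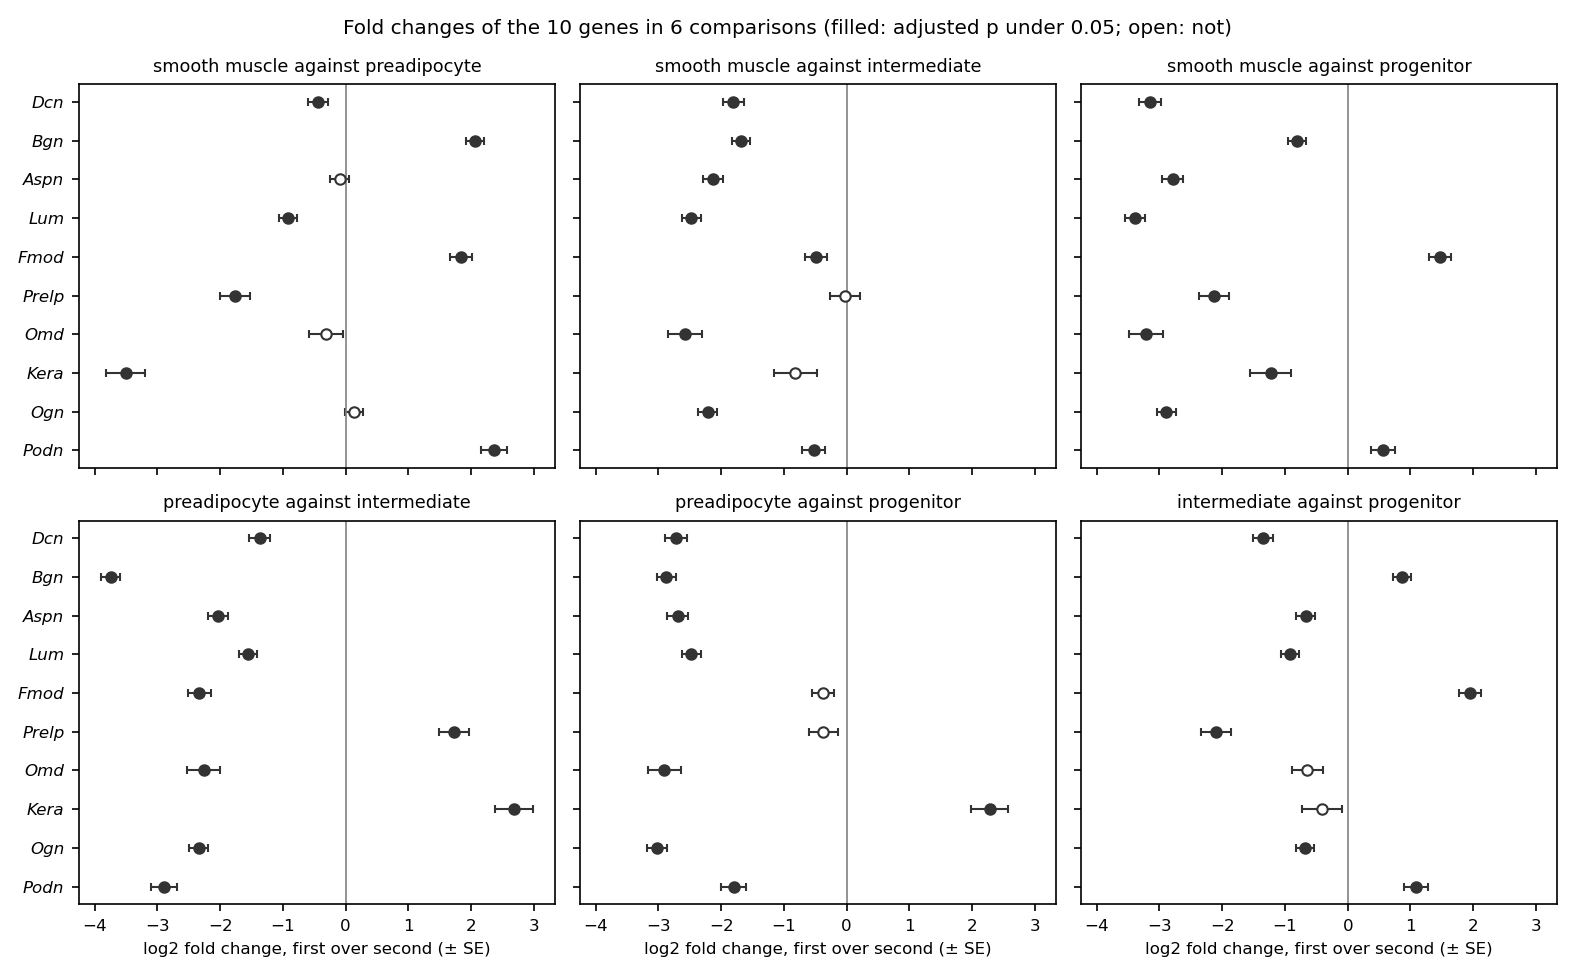
Log2 fold change of each gene in the 6 comparisons, the first-named population over the second; bars are the SE of the fit and filled points have an adjusted p under 0.05. Most points lie left of 0 where smooth muscle cells or preadipocytes are set against intermediate or progenitor cells, and Bgn, Fmod and Podn lie right of 0 for smooth muscle cells against preadipocytes and for intermediate against progenitor cells.

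The median log2 fold change of the 10 members was −2.46 for smooth muscle against progenitor cells, −1.74 for smooth muscle against intermediate cells, −2.14 for preadipocytes against intermediate cells and −2.58 for preadipocytes against progenitor cells. The median over all genes tested was 0.09, 0.10, −0.24 and 0.04 in these comparisons. For intermediate against progenitor cells the medians were −0.65 in the members and 0.05 in all genes, and for smooth muscle cells against preadipocytes −0.20 and 0.35. Scaling moved these baselines. With library size alone, the median of all genes was higher by 0.48 for smooth muscle against intermediate, 0.44 for smooth muscle against progenitor, 0.43 for preadipocyte against intermediate and 0.39 for preadipocyte against progenitor cells, and the genes called higher and lower became 9321 and 1133, 9683 and 2015, 7760 and 4233, and 7857 and 3773, where TMM gave 3346 and 2781, 6501 and 5024, 5540 and 6617, and 5340 and 5503. With preadipocyte replicate 3 as the common library, an alternative chosen after seeing the data, the median was lower by 0.25, 0.15, 0.29 and 0.14 for smooth muscle against preadipocyte, smooth muscle against intermediate, smooth muscle against progenitor and intermediate against progenitor cells. The genes called higher and lower were then 2749 and 4009, 5296 and 7585, and 2457 and 4191 in the last 3 of these, the last against 3009 and 2861 with TMM as reported. No called fold change of a member changed its sign under any of these scalings.

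The make-up of the proteoglycan pool also differed, and it does not depend on the scaling of a library. Shares and ranks do depend on the exon lengths used, here unions of all annotated exons, and other lengths were not tried for them. Per kilobase, Dcn made up 32.7 ± 4.68% of the summed level in smooth muscle cells, 44.3 ± 1.71% in preadipocytes, 31.1 ± 1.93% in intermediate cells and 46.7 ± 4.13% in progenitor cells. Bgn made up 23.1 ± 2.37%, 5.42 ± 0.59%, 19.9 ± 1.41% and 6.4 ± 0.14% in the same populations (SD, n = 3 each), so it ranked 2 of 10 in smooth muscle and intermediate cells and 5 of 10 in preadipocytes and progenitor cells. Fmod made up 7.83 ± 0.60% in smooth muscle cells, 2.14 ± 0.43% in preadipocytes, 2.96 ± 0.04% in intermediate cells and 0.450 ± 0.013% in progenitor cells. The Fmod share was thus highest in smooth muscle cells, whereas its level was highest in intermediate cells.

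The shares of Aspn lay within a narrow range, at 8.23 ± 1.48% in smooth muscle cells, 8.84 ± 1.03% in preadipocytes, 9.72 ± 0.46% in intermediate cells and 9.07 ± 1.24% in progenitor cells. Ogn made up 13.7 ± 2.30%, 12.5 ± 1.99%, 17.1 ± 1.21% and 16.1 ± 2.45%, and Lum 12.1 ± 1.70%, 22.9 ± 0.86%, 18.2 ± 1.65% and 20.2 ± 1.36%, in the same order. Prelp made up 2.59 ± 0.91% in preadipocytes, against at most 0.784% in the mean of any other population, and Kera 0.764 ± 0.12%, against at most 0.0690%. Podn made up 1.23 ± 0.11% in smooth muscle cells and 0.235 ± 0.061%, 0.480 ± 0.051% and 0.132 ± 0.0066% in preadipocytes, intermediate and progenitor cells.

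**Figure D3:**
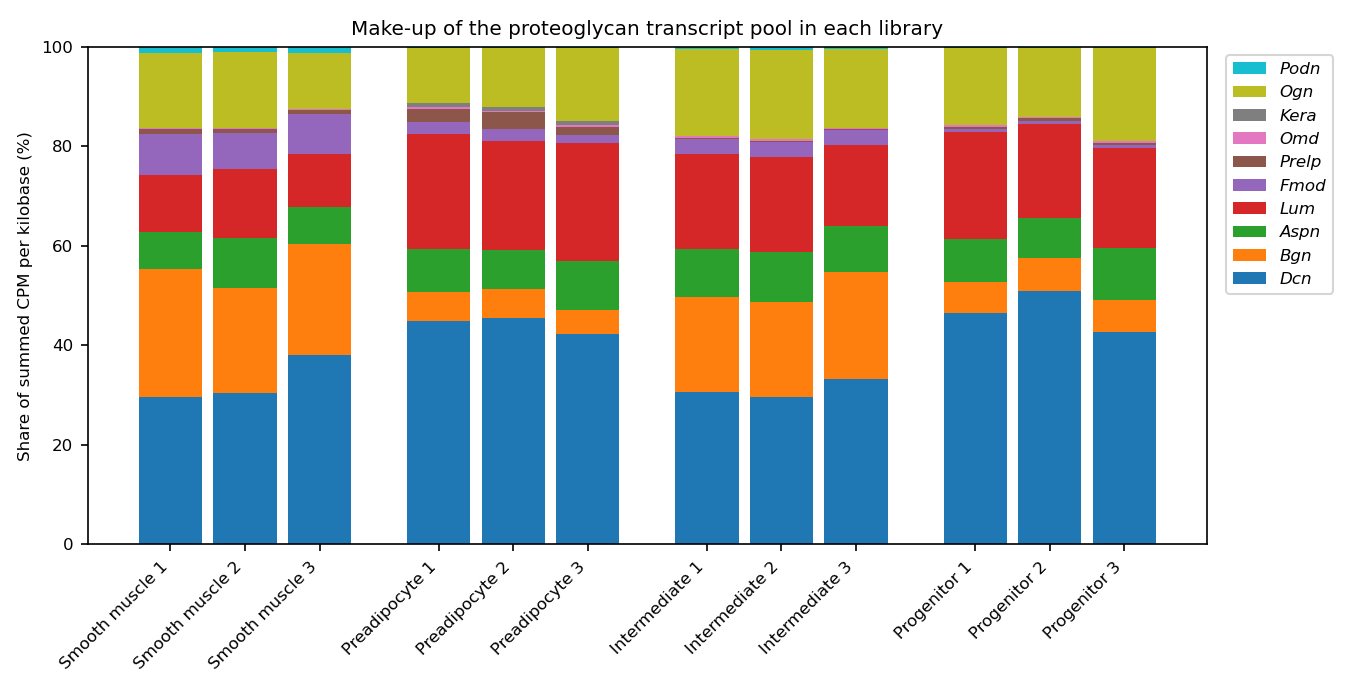
Share of each gene in the summed CPM per kilobase of exon of the 10 genes, in each of the 12 libraries (percent, stacked to 100). The Bgn band spans 19.0% to 25.7% in smooth muscle and intermediate libraries and 4.74% to 6.54% in preadipocyte and progenitor libraries.

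The ratio of Bgn to Dcn, per kilobase, split the libraries into 2 levels. It was 0.869, 0.692 and 0.587 in smooth muscle libraries, 0.127, 0.127 and 0.112 in preadipocyte, 0.625, 0.643 and 0.646 in intermediate and 0.135, 0.128 and 0.150 in progenitor libraries. Smooth muscle and intermediate libraries overlapped and lay above all others. Pericyte markers had the same high and low populations: the 6 of them summed to 1659 to 2001 CPM in smooth muscle, 86.6 to 149 in preadipocyte, 1260 to 1470 in intermediate and 446 to 504 CPM in progenitor libraries, and none was at 0 in a whole population. The 8 contractile markers also had these high and low populations, at 7304 to 7932, 121 to 215, 937 to 1276 and 148 to 160 CPM in the same order. Preadipocyte and progenitor libraries overlapped for the contractile markers and stood apart for the pericyte markers. The part of either marker list in the ratio was not tested. The log2 ratio differed among the 4 populations (two-sided exact permutation test over the 12 libraries, p = 0.00195, where the smallest p possible is 6.49e-05), and this pair of genes was chosen with the level of both known. Both genes lie far above the even background, which amounted to at most 0.113% of their counts.

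**Figure D4:**
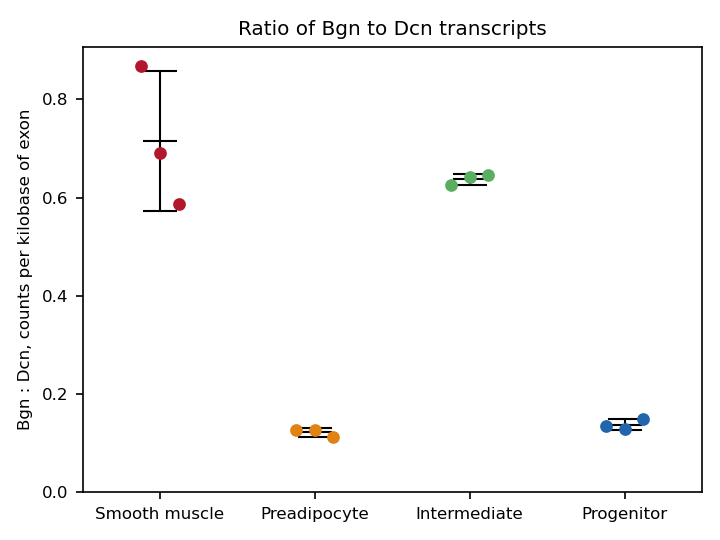
Ratio of Bgn to Dcn counts per kilobase of exon (linear axis from 0) in each library; points are libraries, bars the mean and SD (n = 3). The smooth muscle and intermediate libraries sit between 0.587 and 0.869 and the preadipocyte and progenitor libraries between 0.112 and 0.150.

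Across the 12 libraries, which are 4 groups of 3 and share their scaling, the log2 levels of some members rose and fell together. The coefficients describe the order of the populations and carry no test. Dcn, Lum, Aspn, Ogn and Omd correlated with each other at Pearson r of 0.92 to 0.99. Bgn and Podn had r of 0.92, Fmod and Podn 0.89 and Bgn and Fmod 0.70. Bgn also had r of 0.77 with Ogn, 0.73 with Aspn and 0.70 with Omd, and 0.60 with Dcn and 0.58 with Lum. Prelp and Kera had r of 0.62 with each other and were opposed to Podn at −0.58 and −0.86. Neighbouring genes did not always share a profile: Aspn, Omd and Ogn lie side by side and had r of 0.98 to 0.99, while Lum and Kera, 34175 bp apart, had r of −0.02, and Prelp and Fmod, on 1 chromosome, had −0.82.

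**Figure D5:**
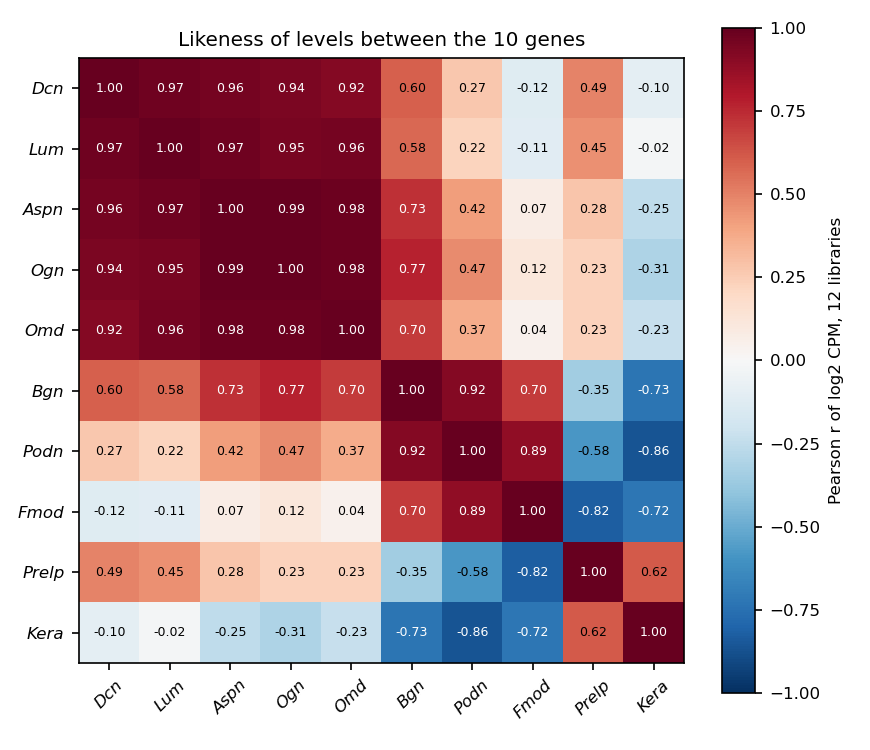
Pearson correlation of log2 CPM between each pair of the 10 genes over the 12 libraries (colour scale −1 to 1). Dcn, Lum, Aspn, Ogn and Omd form 1 block with r of 0.92 or more. Podn has r of 0.92 with Bgn and 0.89 with Fmod, Bgn also has 0.58 to 0.77 with the genes of the block, and Kera has −0.72 to −0.86 with Bgn, Podn and Fmod.

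Among 7828 genes with a mean log2 CPM of at least 4, those whose profile was most like a member were other matrix genes in several cases. Nearest to Bgn were Mmp14, a membrane-bound metalloproteinase (r = 0.998 over 12 libraries), Adamts2, the procollagen I N-proteinase (0.995), and Ephb3 (0.993). Nearest to Fmod were Tnc, the matrix protein tenascin C (0.988), Fnbp1 (0.987) and Col4a5, a basement membrane collagen (0.986). Tnc measured 489 ± 85.8 CPM in smooth muscle cells, 29.4 ± 12.7 in preadipocytes, 1210 ± 78.6 in intermediate cells and 48.3 ± 13.2 in progenitor cells, and an exon of it overlaps 8030451A03Rik on the opposite strand.

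Dcn was most like Sfr1 (0.994), Itm2b (0.993) and Pi16 (0.993), the last a marker of adventitial fibroblast progenitors. Pi16 measured 9.96 ± 3.23 CPM in smooth muscle cells, 12 ± 4.97 in preadipocytes, 101 ± 8.52 in intermediate cells and 839 ± 124 in progenitor cells, so its range was wider than that of Dcn. Lum was most like Col8a2 (0.994), Fam45a (0.993) and the imprinted gene Mest (0.990). Ogn and Aspn were each other's nearest gene (0.994), and Nrk stood among the 3 nearest of both (0.990 and 0.988). Podn was most like Usp2 (0.995), Ltbp3, a latent TGF-β binding protein (0.989), and Wwtr1, the transcriptional coactivator TAZ (0.989). Prelp was most like Ehd1 (0.987) and Ttyh2 (0.986). Omd and Kera were below the level needed for this search.

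The cluster neighbours did not all behave like the members beside them. Epyc, next to Kera, measured 2.16 ± 0.39 CPM in smooth muscle cells, 14.6 ± 2.46 in preadipocytes, 3.21 ± 1.30 in intermediate cells and 35.3 ± 4.47 in progenitor cells, and was lower in preadipocytes than in progenitor cells by −1.27 ± 0.22 (adjusted p = 0.000193), where Kera was higher. Ecm2, next to Aspn, measured 26.4 ± 4.75, 21.2 ± 1.33, 72.4 ± 5.64 and 82.4 ± 9.98 CPM in the same order. Ecm2 was lower in smooth muscle than in intermediate cells by −1.46 ± 0.15 (adjusted p = 2.02e-06), in the direction of Aspn, Omd and Ogn. Optc measured at most 3.43 CPM in any library. Cenpp, whose span holds the chromosome 13 cluster and which encodes a centromere protein, was highest in preadipocytes at 20.3 ± 1.80 CPM, against 7.43 ± 0.35 in smooth muscle, 6.74 ± 0.24 in intermediate and 4.89 ± 0.47 CPM in progenitor cells.

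The collagens that these proteoglycans bind were mostly lower in smooth muscle cells and in preadipocytes than in intermediate cells. Of 16 fibrillar, fibril-associated and type VI collagen genes, 13 were lower in smooth muscle than in intermediate cells (median log2 fold change −2.03, all genes 0.10, with 13.1% of all genes lower). In preadipocytes against intermediate cells, 14 were lower and 1 higher (median −2.93, all genes −0.24, with 31.1% of all genes lower). Between intermediate and progenitor cells, 9 were higher and 1 lower in intermediate cells (median 0.76, all genes 0.05, with 14.1% of all genes higher), where 3 of the 10 proteoglycans were higher and 5 lower. The difference between the lists was not tested. Col1a2, a chain of collagen I, measured 8582 ± 228 CPM in smooth muscle cells, 3690 ± 743 in preadipocytes, 67868 ± 1012 in intermediate cells and 48439 ± 1935 in progenitor cells. Col11a1, a minor fibrillar collagen, was higher in intermediate than in progenitor cells by 3.22 ± 0.25 (adjusted p = 2.52e-07).

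Enzymes that build the sugar chains were mostly lower in preadipocytes. Of 22 genes for the linker and for chondroitin or dermatan sulfate, 18 were lower and 2 higher in preadipocytes than in intermediate cells (median −1.69, all genes −0.24), where 31.1% of all genes were lower and 26% higher. In smooth muscle cells against preadipocytes, 14 were higher and 1 lower (median 0.93, all genes 0.35), where 40.7% of all genes were higher and 25.9% lower. Xylt1, a xylosyltransferase that starts the chain, was lower in preadipocytes than in intermediate cells by −3.52 ± 0.16 (adjusted p = 1.64e-10), with 5.56 ± 0.96 CPM in preadipocytes and 64.1 ± 3.01 CPM in intermediate cells. Of 11 keratan sulfate genes, 7 were lower and 3 higher in preadipocytes than in intermediate cells (median −0.86), beside the same shares of all genes. Chst2, a GlcNAc 6-O-sulfotransferase, was lower there by −5.01 ± 0.48 (adjusted p = 2.68e-07), with 4.83 ± 2.95 CPM in preadipocytes and 156 ± 11.8 CPM in intermediate cells, and it was higher in intermediate than in progenitor cells by 3.04 ± 0.43 (adjusted p = 0.000111).

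Of 15 proteases and enhancers that process these proteins or their collagens, 13 were lower in preadipocytes than in intermediate cells (median −2.35, all genes −0.24), where 31.1% of all genes were lower. In smooth muscle cells against preadipocytes, 12 were higher and 1 lower (median 1.93, all genes 0.35), where 40.7% of all genes were higher and 25.9% lower. Pcolce2, an enhancer of procollagen C-proteinase, was lower in preadipocytes than in progenitor cells by −4.92 ± 0.18 (adjusted p = 4.54e-11), with 4.16 ± 1.16 CPM in preadipocytes and 126 ± 5.37 CPM in progenitor cells. Htra3, a serine protease of the matrix, was lower in smooth muscle than in progenitor cells by −3.08 ± 0.15 (adjusted p = 3.92e-10).

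Receptors and growth factor partners were mostly higher in smooth muscle cells than in preadipocytes. Of 25 tested, 23 were higher in smooth muscle cells than in preadipocytes (median 1.74, all genes 0.35), where 40.7% of all genes were higher. In smooth muscle against progenitor cells, 12 were higher and 8 lower (median 0.19, all genes 0.09), where 30.5% of all genes were higher and 23.6% lower. Ctgf, a matricellular growth factor that binds decorin, measured 456 ± 64.2 CPM in smooth muscle cells, 17.2 ± 2.33 in preadipocytes, 203 ± 9.07 in intermediate cells and 102 ± 6.23 in progenitor cells. Tgfb2, a TGF-β ligand, was higher in smooth muscle than in progenitor cells by 2.54 ± 0.18 (adjusted p = 2.16e-08). Wisp1, a relative of Ctgf, was higher in intermediate than in progenitor cells by 2.42 ± 0.17 (adjusted p = 7.01e-08).

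Of 24 other matrix and cell surface proteoglycans, 16 were higher and 4 lower in smooth muscle than in progenitor cells (median 1.38, all genes 0.09), beside 30.5% and 23.6% of all genes, and 2 of the 10 small leucine-rich proteoglycans were higher and 8 lower. Cspg4, the pericyte and smooth muscle proteoglycan NG2, was higher there by 4.33 ± 0.28 (adjusted p = 5.63e-09). Vcan (versican), a large aggregating proteoglycan of the vessel wall, was lower there by −1.29 ± 0.14 (adjusted p = 1.51e-06), and Gpc3, a cell surface glypican, by −2.78 ± 0.16 (adjusted p = 1.77e-09). Of 8 other small leucine-rich proteins, 5 were lower and 1 higher in preadipocytes than in progenitor cells (median −1.32, all genes 0.04), where 25.9% of all genes were lower and 25.1% higher. Tsku (tsukushi), a secreted binder of BMP ligands, was lower there by −2.91 ± 0.20 (adjusted p = 8.72e-09), with 2.80 ± 0.47 CPM in preadipocytes and 21 ± 1.54 CPM in progenitor cells.

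Replicates spread most widely in preadipocytes. The coefficient of variation over the 10 members had a median of 15% in smooth muscle cells, 22.4% in preadipocytes, 8.32% in intermediate cells and 8.21% in progenitor cells. Preadipocyte replicate 3 was the lowest of its group for Dcn, Bgn, Lum, Fmod, Prelp, Kera and Podn and the highest for Ogn and Omd. Without it, Bgn was lower in preadipocytes than in intermediate cells by −3.59, Fmod by −2.11 and Podn by −2.65, Prelp was higher by 2.01, and each of these calls was kept.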

How the data were processed

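Poly(A) RNA of sorted cells went through a SMART-Seq v4 low-input kit, per the labels' protocols. The submitters' processing notes name STAR 2.5.2a, DESeq2 1.26.0 and mm10. How reads were counted, on which annotation and with what strand setting, is not given in the sources used here. Whole-number counts per gene, as the authors deposited them and unscaled, were used throughout. The deposited normalized and log-transformed tables were not used.

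Groups came from the sample titles. Genes passing filterByExpr (21285) were TMM-scaled and entered edgeR 4.0.16 (glmQLFit, glmQLFTest; R 4.3.3) in 1 model over 12 libraries. P-values were two-sided and adjusted by the Benjamini-Hochberg method over all tested genes, with calls at 0.05. The SE is the one implied by the F statistic. Exon lengths are GENCODE M21 exon unions. Correlations were taken on log2 CPM (prior count 2). The members, the 7 gene lists, the 10 marker lists and the tests were chosen with earlier results of these data known. All members were named, with up to 4 genes per list of smallest F-test p (fold changes given at a called log2 change of at least 1), the cluster neighbours and the 3 genes most like each member, of which 1 is not reported here. Tagln and Col2a1 were named after their values were seen. Replicate pairs differed beyond sampling noise (chi-square per degree of freedom 4.06 to 77.2), so each was taken as its own library. With totals of 11701825 to 17123109 counts, a count of 0 allows up to 0.175 to 0.256 CPM (3 counts). Without molecular identifiers, such limits and intervals cover counting error alone. The even background was the count per kilobase of 1047 olfactory and vomeronasal receptor genes, pooled in each library. That such reads are spread evenly over exons was assumed and not tested. A receptor gene transcribed in the sorted cells would raise this background. The fit was tested on simulated counts.

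The alternatives tried were edgeR with DESeq2-type size factors or with library size alone, DESeq2 1.42.0, limma-voom (limma 3.58.1), a fit without the low-count filter, a filter of 5 CPM in 3 libraries, the compared populations alone, a replicate block, background subtraction, no length scaling for the ratio and leaving out each library. TMM factors were computed anew after background subtraction and were kept from the fit over 12 libraries when a library was left out. TMM with preadipocyte replicate 3 as the common library was added after seeing the data.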

Additional observations from a re-analysis of the deposited data

How the results depend on the processing

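Of 1320 alternative values of the members' fold changes, 1262 kept direction and side of the threshold, 32 lost and 15 gained a call, and 11 changed sign, none of them called in either fit. Leaving out 1 library kept the TMM factors, so fold changes of comparisons without that library could hardly move. Fmod in smooth muscle against intermediate cells, for example, stayed at −0.49 without each progenitor replicate in turn. The 1262 thus include values with little room to change direction. The number of members higher in smooth muscle than in progenitor cells, 2 as reported, was 1 with preadipocyte replicate 3 as the common library, 1 without the low-count filter, which also made that library the common one, and 1 to 2 when each library was left out, the value 1 arising without smooth muscle replicate 3 and without progenitor replicate 2. In each case the lost member was Podn. The other counts of members stayed within 1.5 times. Within that limit, members lower in smooth muscle than in intermediate cells, 8 as reported, were 6 with library size alone or the replicate block. They were 6 to 8 when each library was left out and 9 without the low-count filter. Members lower in smooth muscle cells than in preadipocytes, 4 as reported, were 3 with the background subtracted and 6 without the low-count filter. Uncalled values that changed sign were, for smooth muscle cells against preadipocytes, Aspn (0.038 with the background subtracted, −0.28 to 0.032 leaving out 1 library), Ogn (−0.32 without the low-count filter, −0.12 with these populations alone, −0.12 with preadipocyte replicate 3 as the common library) and Omd (−0.57 to 0.0063 leaving out 1 library). Prelp in smooth muscle against intermediate cells was 0.45 with library size alone, 0.039 at 5 CPM in 3 libraries, 0.041 with the background subtracted and −0.12 to 0.083 leaving out 1 library, and Fmod in preadipocytes against progenitor cells was 0.0068 with library size alone. The causes were not tested. No pairing of samples by replicate number was seen: deviations of same-numbered libraries correlated at −0.163 to 0.207 over 18 pairs, against −0.262 to 0.288 over 36 other pairs. With 3 libraries per population these correlations cannot exclude pairing. With the replicate block, each count of members stayed within 1.5 times, and Fmod and Podn in smooth muscle against intermediate cells were not called (−0.48, adjusted p = 0.0533, and −0.52, adjusted p = 0.0614). The ratio of Bgn to Dcn, a pair chosen with both levels known, differed among populations when each library was left out (exact permutation test, p = 6.49e-05 to 0.00299). Leaving out length scaling shifts every log2 ratio alike, so that alternative could not change the result. The background was at most 0.113% of the counts of both genes, and its subtraction left p at 0.00195. With 3 libraries per population and low counts in Kera and Omd, small differences in these genes were not detectable.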
